A study of Arabidopsis thaliana with 12 samples.

Results

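The probes described here are 159 spots of an Arabidopsis array whose annotation gives several gene names each and whose signal was far lower in plants held in the cold. They were chosen by their values. A member had to read above 0 on all 12 arrays, with its highest value at 4 °C below its lowest value at 20 °C and a mean at 4 °C of at most 0.35 of its mean at 20 °C. Of the 3439 probes on the array, 870 carried several names and 786 of those were above 0 on every array, so the members were 159 of 786. The same limits held for 20.1% of all 3108 probes above 0 on every array, for 20.2% of those with several names, for 21.0% of the 614 with 1 name and for 19.7% of the 1708 with no name here. Because the rule used the contrast between temperatures, the differences of the members are given as descriptions with no test.

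All plants were wild-type Arabidopsis thaliana, ecotype Columbia 0, and total RNA was measured. The ML_4C group, with 6 arrays, came from plants moved to 4 °C in medium light for 24 h, which the submitters call photoinhibitory. The ML_20C group, also with 6 arrays, came from plants grown in medium light at 20 °C. The labels name no tissue, no plant age and no growth medium. Arrays numbered 1-2, 3-4 and 5-6 resembled each other most within both groups, whichever of the 15 possible pairings was tried, so each such pair was averaged and counted as 1 sample (n = 3 per group). Since the labels do not say that the pairs came from separate plants, p-values below reflect only how far these samples differ, and that spread may be technical.

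An array probe binds every transcript that is similar enough to it, and members of a gene family can therefore share a spot. The annotation lists the candidate genes of such a spot but not the share of each in the signal, and the names below are alternatives. Cold in the light slows the enzymes that use absorbed energy more than it slows light capture, and excess excitation then damages photosystem II. Plants answer within a day by turning on cold-regulated genes and by remodelling membranes, chloroplasts and cell walls.

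The values are the deposited intensity of each probe, on a linear scale with no unit. The means of the arrays were alike, from 1.02 to 1.09, but how they were scaled is not given. The median of an array was 0.276 to 0.315 at 4 °C and 0.536 to 0.569 at 20 °C, so a typical probe took a smaller share of the total in the cold. Levels and ratios of single members below are as deposited and not corrected for that general difference, except where another scaling is named. COR15A and COR15B, cold-induced proteins that protect chloroplast membranes, share probes 615 and 3484. These read 11.9 ± 0.667 and 11.4 ± 0.954 at 4 °C, against 1.18 ± 0.137 and 1.33 ± 0.147 at 20 °C (SD, n = 3), and were thus far brighter in the group labelled as cold. Of the cell type markers looked for, a probe was found for 1 of 16 of photosynthetic leaf cells, 1 of 11 of roots, 2 of 11 of flowers and pollen, 1 of 4 of dividing cells, and 0 of 10, 5 and 5 of seeds, guard cells, and xylem and phloem. RCA, the activase of Rubisco, read 2.13 at 4 °C and 1.57 at 20 °C on probe 665, and 0.113 and 0.197 on probe 1872. In whole-plant or tissue RNA, fewer cells of a type and less RNA per cell cannot be told apart.

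The 159 members ran from dim to bright at 20 °C, with a median near the middle of the array. At 4 °C their median rank was low, though some, such as probe 2017, stayed above the middle. Their median level was 0.143 at 4 °C and 0.627 at 20 °C, while the other 627 probes with several names had medians of 0.415 and 0.572. On a percentile scale, where 100 is the brightest probe of an array, the median member stood at 18.6 at 4 °C and at 51.0 at 20 °C. The others stood at 57.1 and 46.3. The percentile was lower at 4 °C for 159 of 159 members, and 46 of them were under 10 at 4 °C, against 8 at 20 °C. The rule favours a lower rank in the cold, and the same counts were not made for the other probes. At 20 °C, 57 members had a mean under 0.5, 71 had 0.5 to 1 and 31 had 1 or more, of which 3 reached 2. Of the summed intensity of an array, the members together held 0.727% to 0.824% on the cold arrays and 3.09% to 3.22% on the others. Single members ran from 0.0296 to 0.567 at 4 °C and from 0.115 to 3.26 at 20 °C.

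The ratio of the mean at 4 °C to the mean at 20 °C had a median of 0.254 over the members. It was at most 0.10 for 3 members, at most 0.20 for 46, above 0.20 and up to 0.30 for 71, and above 0.30 for 42. The distance between groups also varied. The lowest array at 20 °C was a median of 2.42 times the highest at 4 °C, with a range of 1.0 to 7.62, and it was at least 2 times for 122 members. The rule requires every array at 4 °C to lie below every array at 20 °C, so the values per array only describe the members. Relative to each probe's own mean at 20 °C, the median member read 0.227 to 0.266 on the 6 arrays at 4 °C and 0.958 to 1.04 on the 6 at 20 °C. Within the cold group, arrays 3 and 4 were the highest pair for 76 members and arrays 1 and 2 the lowest for 71. The relative spread over pair means was wider in the cold, with a median of 22.8% of the mean at 4 °C and 11.9% at 20 °C. For the other probes with several names it was 17.0% and 13.9%.

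The lowest ratio was that of probe 64, which names AT4G28030 or AT2G06025. Its pair means were 0.0373, 0.0713 and 0.0311 at 4 °C, against 0.741, 0.702 and 0.605 at 20 °C, a ratio of 0.0683. It ranked near the middle of the array at 20 °C, at percentile 56.5, and among the dimmest probes in the cold, at 2.0. Probe 614 names AT3G59950 or AT2G44140, the ATG4 cysteine proteases that process ATG8 in autophagy. It read 0.0570, 0.0459 and 0.0407 at 4 °C and 0.567, 0.568 and 0.482 at 20 °C, a ratio of 0.0888. All pairs of this probe were close to each other within a temperature. Probe 1549, which carries the same names, was listed at 0 on all 12 arrays. Probe 2690, naming AT1G03810, AT4G28440 or AT2G33845, was far less even in the cold, with 0.0564, 0.109 and 0.00373 at 4 °C against 0.658, 0.760 and 0.558 at 20 °C.

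Sterol glucosyltransferases, which attach glucose to membrane sterols, are named by probe 3322 (UGT80B1, AT5G24750 or SGT). Its pair means were 0.0254, 0.0714 and 0.0686 at 4 °C and 0.525, 0.568 and 0.509 at 20 °C. Probe 3795 (AT4G22610 or AT4G22520) read 0.0319 ± 0.0155 at 4 °C and 0.277 ± 0.0325 at 20 °C, and its lowest cold array was at 0.000812. A value so near 0 leaves the size of its ratio, 0.115, uncertain. Probe 38 (AT3G33530 or AT2G26610) read 0.168, 0.102 and 0.214 at 4 °C and 1.64, 1.23 and 1.21 at 20 °C. Disease-resistance proteins of the TIR-NBS-LRR type, AT1G63740 or AT1G63730, are neighbours in the genome and share probe 2445, which read 0.0724 ± 0.0474 at 4 °C and 0.575 ± 0.0959 at 20 °C. For these probes the values at 4 °C spread over a wider relative range than those at 20 °C.

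Only 3 members reached a mean of 2 at 20 °C. Probe 1552 (AT5G24390 or AT3G49350) was the brightest at 20 °C, with pair means of 0.524, 0.456 and 0.576 at 4 °C against 3.28, 3.35 and 3.16 at 20 °C. Its SD at 20 °C was only 0.0953. Probe 2611 names the calmodulin-like proteins AT3G10190 and AT2G41410, which bind calcium, and AT2G41415. It read 0.504, 0.510 and 0.354 at 4 °C and 1.91, 1.89 and 1.70 at 20 °C. Probe 1719 (AT5G03110 or AT2G37100) had the highest cold level of all members, 0.567 ± 0.176, against 1.71 ± 0.367 at 20 °C.

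Some ratios rest on how 1 pair of arrays is weighed. Probe 2017 names the pentatricopeptide repeat proteins AT1G80150, AT4G36680 and AT2G18520, RNA-binding proteins of organelles. At 4 °C it read 0.594, 0.588 and 0.480, and at 20 °C it read 0.828 on arrays 1 and 2 but 2.66 and 2.51 on the other pairs. Probe 237, for the aspartyl proteases AT5G45120, AT4G16563 or AT3G52500, read 0.359 ± 0.110 at 4 °C, and its pairs at 20 °C were 1.84, 0.657 and 2.07. Arrays 3 and 4 at 20 °C were again the low pair for probe 2829 (ATCSA-1 or AT1G19750, relatives of a DNA repair factor), with 0.221 ± 0.0565 at 4 °C and 0.942, 0.381 and 0.993 at 20 °C. The SD over pairs was above 0.5 of the mean for 14 members at 4 °C and for 2 at 20 °C.

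Members that name genes with a known chloroplast function are given first, as examples and not as a counted group. GR and GR1, glutathione reductases that keep glutathione reduced, share probe 3511, with pair means of 0.159, 0.180 and 0.152 at 4 °C against 1.04, 0.978 and 0.786 at 20 °C. HEME1 and HEME2, uroporphyrinogen decarboxylases on the path to heme and chlorophyll, share probe 2077, which read 0.329 ± 0.0235 at 4 °C and 1.09 ± 0.0877 at 20 °C. PGL34, a plastoglobulin of the lipid droplets on thylakoids, and AT2G42130 share probe 4428, which read 0.0816 ± 0.00731 at 4 °C and 0.479 ± 0.00580 at 20 °C. The lowest array at 20 °C was 3.66, 2.79 and 4.35 times the highest at 4 °C on these probes, and their ratios were 0.175, 0.303 and 0.170.

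Several of these genes act in building or repairing photosystem II. Probe 568 names AT5G46390, AT4G17740 or AT3G57680, of the peptidase family that trims the C terminus of the D1 protein. It read 0.208 ± 0.0413 at 4 °C and 0.627 ± 0.0612 at 20 °C. LPA66, an RNA editing factor needed for photosystem II, or AT2G42920 gave 0.0696, 0.0729 and 0.0581 at 4 °C and 0.346, 0.384 and 0.336 at 20 °C on probe 738. LPA1, which assists assembly of that complex, or AT4G28740 gave 0.0713 ± 0.0200 at 4 °C and 0.232 ± 0.0818 at 20 °C on probe 1401. On that last probe arrays 3 and 4 at 20 °C, at 0.139, lay well under the other pairs at 0.264 and 0.293. FKBP-type isomerases, which help proteins fold, are given here without a role in photosystem II. They are named by probe 4492 (AT1G20810 or AT3G10060), with 0.188 ± 0.00553 at 4 °C and 0.590 ± 0.0700 at 20 °C.

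Organelle gene expression was represented too. The mTERF proteins AT1G78930 or AT5G55580, relatives of a transcription termination factor, gave 0.147, 0.183 and 0.160 at 4 °C and 0.843, 1.03 and 0.805 at 20 °C on probe 4364. Probe 2165 names other mTERF proteins, AT1G21150, AT5G64950 or AT5G07900, and read 0.277 ± 0.0469 at 4 °C and 1.38 ± 0.109 at 20 °C. OTP87, a mitochondrial RNA editing factor, or AT1G23450 gave 0.0392 ± 0.0102 at 4 °C and 0.220 ± 0.0482 at 20 °C on probe 765. TRZ3 and TRZ4, the tRNase Z enzymes that trim the ends of tRNA precursors, share probe 502, which read 0.180 ± 0.0368 at 4 °C and 0.680 ± 0.0487 at 20 °C. Apart from gene expression, LSMT-L, a methyltransferase that acts on chloroplast proteins, is 1 of 5 names of probe 3842. That probe read 0.105 ± 0.0153 at 4 °C and 0.327 ± 0.0440 at 20 °C.

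Cell wall enzymes included the second brightest member. Probe 2641 names AT5G64110 or AT5G64100, class III peroxidases encoded by neighbouring genes, which oxidise wall phenolics. Its pair means were 0.442, 0.362 and 0.331 at 4 °C and 3.38, 3.56 and 2.61 at 20 °C, a ratio of 0.119. Another peroxidase probe, 3166 (AT1G34510 or AT4G26010, of which AT4G26010 is also a root marker under the name PRX44), read 0.271 ± 0.0382 at 4 °C and 1.14 ± 0.106 at 20 °C. It was the only root marker with a probe, so the part of root RNA in these levels was not tested. Peroxidases are also the names of probe 1064 (AT4G31760 or AT2G24800), which had 0.284, 0.219 and 0.135 at 4 °C and 0.545, 0.852 and 0.922 at 20 °C, with a ratio of 0.275.

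Glucanases, pectin enzymes and xyloglucan synthases are the names of further members. GH9B12, GH9B11, GH9B10 and GH9B9, endoglucanases of 1 chromosome with neighbours among them, share probe 1466. It read 0.0868, 0.0574 and 0.0264 at 4 °C against 0.471, 0.484 and 0.442 at 20 °C. Pectin methylesterases remove methyl groups from pectin and so change wall stiffness. PME61 or ATPMEPCRD gave 0.122, 0.125 and 0.153 at 4 °C and 1.11, 0.808 and 0.964 at 20 °C on probe 2650, and the nearby genes AT4G02320 or AT4G02300 gave 0.106 ± 0.0110 at 4 °C and 0.606 ± 0.0266 at 20 °C on probe 380. CSLC5, CSLC12, CSLC04 and ATCSLC08, of the family that makes the xyloglucan backbone, share probe 1130, with 0.248 ± 0.0730 at 4 °C and 1.01 ± 0.118 at 20 °C.

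Other members name proteins of membrane traffic and lipid metabolism. ELC and ELC-Like, ubiquitin-binding subunits of the ESCRT-I complex that sorts membrane proteins for breakdown, were read by 2 members. Probe 2494 gave 0.120, 0.216 and 0.0975 at 4 °C and 1.22, 1.34 and 1.16 at 20 °C, and probe 196, which also names AT2G38830, gave 0.160 ± 0.0185 at 4 °C and 0.613 ± 0.0634 at 20 °C. VPS37-1, a further subunit of that complex, or AT2G36680 gave 0.0708 ± 0.0193 at 4 °C and 0.214 ± 0.0382 at 20 °C on probe 1584. The ratios of these probes were 0.117, 0.262 and 0.331, and probes 2494 and 196 share their ELC names.

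In fatty acid synthesis, probe 981 names the hydroxyacyl-ACP dehydratases AT5G10160 and AT2G22230. It read 0.0127, 0.0398 and 0.0363 at 4 °C and 0.223, 0.238 and 0.212 at 20 °C. Acyl-ACP desaturases, which put the initial double bond into plant fatty acids, are named by probe 1293 (AT5G16230, AT3G02620 or AT3G02610), which read 0.126 ± 0.0140 at 4 °C and 0.443 ± 0.0155 at 20 °C. FAAH, a fatty acid amide hydrolase, is an alternative on probe 736, with 0.0686 ± 0.0167 at 4 °C and 0.366 ± 0.0188 at 20 °C. OPCL1, a ligase of jasmonate synthesis, and 4CL8 are among the names of probe 4208, which read 0.164, 0.207 and 0.143 at 4 °C and 0.925, 1.21 and 1.0 at 20 °C.

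Regulators were spread over several families. The bZIP factors bZIP52 or AT2G40620 gave 0.0501, 0.0707 and 0.0602 at 4 °C and 0.469, 0.512 and 0.438 at 20 °C on probe 4440, the lowest ratio among them at 0.128. YAB2, INO and YAB5, YABBY factors of leaf and ovule polarity, share probe 26, which read 0.181 ± 0.0423 at 4 °C and 0.647 ± 0.0602 at 20 °C. The MADS-box factors AGL54, AGL53 and AGL93 share probe 3627, which read 0.388, 0.472 and 0.348 at 4 °C and 1.15, 1.67 and 0.987 at 20 °C. AGL54 was also taken as a flower and pollen marker. The other flower marker with a probe, SPL on probe 728, read 0.287 ± 0.0154 at 4 °C and 0.691 ± 0.0269 at 20 °C, and the part of flower RNA was not tested.

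Proteins of signalling, folding and cell division were named as well. Probe 4238 names AT1G13460 or AT3G26020, regulatory subunits of the phosphatase PP2A, and read 0.0755, 0.132 and 0.128 at 4 °C and 0.698, 0.869 and 0.745 at 20 °C. AKINBETA1, a subunit of the energy-sensing kinase SnRK1, or AT4G16360 gave 0.124 ± 0.0173 at 4 °C and 0.433 ± 0.0145 at 20 °C on probe 3874. The glutamate receptor-like channels GLR2.8 and GLR2.9, encoded side by side, gave 0.124 ± 0.0266 at 4 °C and 0.590 ± 0.132 at 20 °C on probe 39. Subunits of the CCT chaperonin, which folds actin and tubulin, are the names of probe 466 (AT1G24510, AT3G18190 or AT3G03960), with 0.206 ± 0.0389 at 4 °C and 0.944 ± 0.117 at 20 °C. BUB3.1 and BUB3.2, proteins of the mitotic checkpoint, are names of probe 3863, which read 0.0779 ± 0.00765 at 4 °C and 0.281 ± 0.0198 at 20 °C. The only marker of dividing cells with a probe, the histone H3 gene AT1G09200 on probe 3043, read 0.112 ± 0.0451 at 4 °C and 0.273 ± 0.0725 at 20 °C, and the part of dividing cells was not tested.

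Counts by word lists cover only alternatives whose symbol or synonym holds a listed word. Most alternatives carry only a locus name, so these are counts of matches and not of families, and members named above for a role, such as mTERF probe 2165 or protease probe 237, can be missing from them. Of 18 lists, 12 held a probe with several names above 0 on all arrays and 9 held a member. Members were 3 of 8 transcription factors, 5 of 16 glycosyltransferases and hydrolases, 1 of 7 redox proteins, 1 of 8 proteases (probe 2780, for AT2G14390, AT2G14290 or PIP), 1 of 5 lipid enzymes and 1 of 4 pentatricopeptide repeat proteins. They were also 2 of 3 matches for light-harvesting and photosystem proteins, 1 of 1 for mTERF proteins and 1 of 1 for RNA processing. There were 0 of 4 in the F-box and ubiquitin list, 0 of 2 in the Calvin cycle and 0 of 1 protein kinase, and 6 lists held no such probe. Over all such probes of a list, members or not, the median log2 change was -1.43 in pentatricopeptide repeat proteins, -1.28 in transcription factors, -1.24 in lipid metabolism, -1.18 in redox proteins, -0.54 in glycosyltransferases and hydrolases, -0.53 in proteases and 0.06 in the F-box and ubiquitin list. The median over all probes above 0 on an array was -0.74. Of all probes with several names, 20.2% were members, so none of these counts is read as particular to a list.

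The number and position of the gene names are given beside those of the other probes with several names. Members named 367 distinct genes, of which 366 matched the reference and were protein coding. There were 112 members with 2 names, 37 with 3, 8 with 4 and 2 with 5, and 2 names were found on 70.4% of members and 75.0% of the other 627. All names lay on 1 chromosome for 23.3% of members and 29.7% of the others. Names of adjacent coding genes occurred on 21 members, 13.2%, against 10.7% of the others. The peroxidase, endoglucanase and calmodulin-like probes above are among these, as is probe 1859 (AT1G20065 or AT1G20060), which read 0.318 ± 0.0348 at 4 °C and 1.13 ± 0.108 at 20 °C.

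Separate probes with a single gene name offered a measurement that the rule had not used. Such probes existed for a gene of 15 members, 16 probes in all. With limma on log2 pair means, at an adjusted p of 0.05 over all 3379 probes above 0 on an array, 9 of the 16 fell at 4 °C and 0 rose. Of the 7 others, 3 were listed at 0 on at least 8 arrays, so that their fitted changes rest on the replaced zeros, namely probes 1875 (AT5G13410), 3394 (AT5G16230) and 2548 (AT1G67820). Over all 677 single-name probes tested in that fit, 52.0% fell and 5.91% rose, and over all probes 49.5% fell and 6.90% rose. The share among the 16 was not tested against that background, which also includes probes with zeros.

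The endoglucanases of probe 1466 had probes of their own. GH9B11 read 0.266, 0.171 and 0.158 at 4 °C and 0.726, 0.729 and 0.699 at 20 °C on probe 1490, a log2 change of -1.91 ± 0.22 (SE, limma adjusted p = 0.0012). GH9B12 read 0.170, 0.113 and 0.0727 at 4 °C and 0.433, 0.415 and 0.446 at 20 °C on probe 1502, a change of -1.98 ± 0.31 (limma adjusted p = 0.0032). Both genes thus fell on probes that name no other gene, although GH9B12 missed the threshold after cyclic loess, at -0.87 (limma adjusted p = 0.052). Probe 1478, for GH9B10 or GH9B9 alone, read 0.0503 ± 0.0773 at 4 °C, where 3 arrays were at 0, and 0.248 ± 0.0371 at 20 °C. AGL54 fell by 2.20 ± 0.31 on the log2 scale on probe 4607, with 0.0574 ± 0.0195 at 4 °C and 0.248 ± 0.0274 at 20 °C (limma adjusted p = 0.0021). AT1G13970, a name of probe 2434, fell by 1.80 ± 0.21 on probe 2639, with 0.163 ± 0.0305 at 4 °C and 0.558 ± 0.0893 at 20 °C (limma adjusted p = 0.0011).

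Smaller falls were seen on 5 more single-name probes. The DNA glycosylase AT3G50880, 1 of the alternatives of probe 1580, read 0.378 ± 0.0233 at 4 °C and 0.903 ± 0.050 at 20 °C on probe 1252 (log2 change -1.26 ± 0.13, limma adjusted p = 0.00075). AT5G46390, of the D1-processing peptidase family and a name of probe 568, had 0.549, 0.646 and 0.633 at 4 °C on probe 1690. At 20 °C that probe had 1.62, 0.938 and 1.67 (log2 change -1.17 ± 0.26, limma adjusted p = 0.011). PRA1.B3, a prenylated Rab acceptor of the secretory pathway and a name of probe 3872, fell by 1.36 ± 0.39 (limma adjusted p = 0.028). AT3G25680 of probe 436 and AT1G76240 of probe 815 fell by 0.99 ± 0.14 and 0.72 ± 0.20 (limma adjusted p = 0.0023 and 0.027). The fall of AT1G76240 on probe 4178 turned to 0.19, 0.37 and 0.38 after median centring, quantile normalization and cyclic loess. Its call was lost without any of 5 of the 6 pairs (limma adjusted p = 0.057 to 0.082), and that of PRA1.B3 without any of 4 (limma adjusted p = 0.054 to 0.079). Under these 3 scalings 4, 5 and 5 of the 13 single-name probes above 0 on all arrays were called lower, and those of GH9B11, AGL54 and AT1G13970 were called lower each time. PRA1.B3 was called under none of them, at -0.46, -0.12 and -0.20 (limma adjusted p = 0.40, 0.81 and 0.69), nor was AT5G46390, at -0.26, -0.70 and -0.76 (limma adjusted p = 0.46, 0.13 and 0.070). AT3G25680 was called only after cyclic loess, at -0.54, beside -0.09 and -0.48 after median centring and quantile normalization (limma adjusted p = 0.67 and 0.062). AT3G50880 missed the threshold after median centring, at -0.36 (limma adjusted p = 0.054).

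For 4 single-name probes no change was called while the member that shares the gene was low in the cold. AT5G55580, an mTERF protein and a name of probe 4364, read 1.45, 1.52 and 1.69 at 4 °C and 1.22, 1.35 and 1.48 at 20 °C on probe 800. Its log2 change was 0.20 ± 0.14 (limma adjusted p = 0.27), beside -2.47 on the shared probe. The groups overlapped on probe 800, so the sign there is not settled. AT5G06790 of probe 505 read 1.39 ± 0.174 at 4 °C and 1.11 ± 0.177 at 20 °C on probe 1087 (limma adjusted p = 0.17). AT1G03810, a name of the second lowest member, probe 2690, read 1.30 ± 0.0409 at 4 °C and 1.61 ± 0.140 at 20 °C on probe 651 (limma adjusted p = 0.093). As deposited, every array at 4 °C lay below every array at 20 °C on probe 651. AT1G32160 of probe 2560 read 0.566 ± 0.185 at 4 °C and 0.624 ± 0.121 at 20 °C on probe 820 (limma adjusted p = 0.63). The groups overlapped on probes 1087 and 820. Scaling mattered here, since after median centring probes 800, 1087 and 651 were called higher, at log2 changes of 1.10, 1.23 and 0.60 (limma adjusted p = 0.0034, 0.0031 and 0.020). Probe 1087 was also called higher after quantile normalization, at 0.66 (limma adjusted p = 0.036). With single arrays in place of pair means, probe 651 was called lower and probes 1087 and 800 higher (limma adjusted p = 0.0025, 0.028 and 0.050). The difference in change between a member and its single-name probe was not tested, because the member had been chosen for its change.

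Other probes carry exactly the same names as a member. There were 23 such pairs with both probes above 0 on all arrays, and in 3 of them both probes were members. PGL34 or AT2G42130 was read by probes 4428 and 2293, the second with 0.136, 0.0777 and 0.0780 at 4 °C and 0.549, 0.386 and 0.418 at 20 °C. AT1G50040 or AT3G19680 was read by probe 2254, at 0.113 ± 0.0587 at 4 °C and 0.574 ± 0.0606 at 20 °C, and by probe 2747, at 0.293 ± 0.0127 and 1.45 ± 0.150. AT1G75400 or AT1G19680 was read by probe 1840, at 0.311 ± 0.0643 at 4 °C and 1.49 ± 0.115 at 20 °C, and by probe 3954, at 0.0548 ± 0.0213 and 0.319 ± 0.0636. The log2 changes of these probe pairs differed by a median of 0.25. Both probes of each pair had to meet the rule, which favours alike changes, so this value is a description.

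In the other 20 pairs the probe with the same names was no member. Of these 20 probes, 3 were lower at 4 °C without overlap, 0 were higher without overlap and 5 had a mean ratio above 1. Of all probes with several names 50.1% were lower without overlap, but these include the members, all lower by the rule. That share is thus no background for the 20, and theirs was not tested. The limit of above 0 on all arrays also left probes out, since 26 of 31 probes with the same names as a member passed it. Of those left out, probes 3908, 3664 and 2006 were lower at 4 °C without overlap. They read 0.136, 0.0102 and 0 at 4 °C against 0.776, 0.216 and 0.178 at 20 °C. Probes 1549 and 4264 were at 0 on 12 and 11 arrays. AT5G61200 or AT5G07890 read 0.169, 0.218 and 0.248 at 4 °C and 1.47, 1.78 and 1.65 at 20 °C on member 501, but 0.676, 0.443 and 0.784 at 4 °C and 0.532, 0.190 and 0.625 at 20 °C on probe 2555. The log2 changes were -2.96 on member 501 and 0.63 ± 0.50 (SE) on probe 2555, whose groups overlapped, so the sign on the second spot is not settled. The hydroxyacyl-ACP dehydratases of member 981 read 0.406, 0.380 and 0.455 at 4 °C and 0.150, 0.601 and 0.662 at 20 °C on probe 3526, where the groups overlapped. HISN5B or IGPD, enzymes of histidine synthesis, read 0.117 ± 0.0492 at 4 °C and 0.395 ± 0.0110 at 20 °C on member 1473 and 1.88 ± 0.331 and 1.42 ± 0.372, with overlapping groups, on probe 301.

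AT4G25370 or AT4G12060, accessory proteins of the chloroplast Clp protease, showed the same contrast. Member 3431 read 0.0539, 0.0598 and 0.0403 at 4 °C and 0.0923, 0.191 and 0.183 at 20 °C. The far brighter probe 4384 read 1.32, 1.19 and 1.11 at 4 °C and 1.08, 1.03 and 1.02 at 20 °C. Its single arrays overlapped between groups, and its log2 change was 0.20 ± 0.13 (SE). AT1G04930 or AT2G32840 gave 0.417 ± 0.0728 at 4 °C and 1.49 ± 0.132 at 20 °C on member 1646, beside 1.18 ± 0.245 and 1.51 ± 0.0753, with overlapping groups, on probe 2047. The SWIB-domain proteins AT4G34290 or AT2G14880 were low on both probes, with ratios of 0.285 on member 2067 and 0.390 on probe 2607. The size of the difference in log2 change ran from 0.51 to 3.59 over the 20 pairs, with a median of 1.72. It had a median of 0.83 over the 50 pairs of same-name probes with no member. Choosing 1 probe of a pair for a large change widens such a difference, and these values are descriptions.

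Another 28 probes outside the set, above 0 on all arrays, share only some names with a member. Of these 13 were lower without overlap and 5 higher, and 12 had a ratio above 1. Probes with a 0 on an array are not among the 28. Of those, probes 1478 and 637 were lower without overlap, and probes 1656 and 194 were not. Over all probes 49.8% were lower and 9.30% higher without overlap, but these include the members, all lower by the rule. Those shares are thus no background for probes outside the set. PHOS32 and PHOS34, phosphoproteins of the universal stress family, read 7.38, 7.24 and 9.53 at 4 °C and 5.35, 4.78 and 5.06 at 20 °C on probe 4444. Member 902, which adds the name AT1G11360, read 0.298, 0.266 and 0.238 at 4 °C and 1.08, 1.10 and 1.02 at 20 °C. OPCL1 with 4 other names read 6.62 ± 0.156 at 4 °C and 4.00 ± 0.379 at 20 °C on probe 2145, against the lower cold values of member 4208. On probe 1094, which carries only AT1G20500 and 4CL8 of that member's names, the values were 0.959 ± 0.192 and 2.13 ± 0.202.

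Further named sets behaved in both ways. CSLC5, CSLC6 or ATCSLC08 read 1.69 ± 0.261 at 4 °C and 1.08 ± 0.0452 at 20 °C on probe 4030, the opposite order to member 1130. The 2 other probes that name CSLC12 had overlapping groups, at 1.0 ± 0.0832 and 1.05 ± 0.232 on probe 1161, and on probe 1431 the values reached the ceiling of 100. Member 790 (AT5G62910 or AT3G48070) read 0.451 ± 0.0342 at 4 °C and 1.32 ± 0.182 at 20 °C, while probe 838, with 1 more name, had overlapping groups at 1.24 ± 0.161 and 1.30 ± 0.451. Member 2699 (AT1G49840 or AT3G19540) read 0.248 ± 0.0564 at 4 °C and 1.16 ± 0.0894 at 20 °C, while probe 3400, with 4 names, read 0.297 ± 0.0420 and 0.437 ± 0.116. Member 3914, with AT5G02990, AT5G03000, AT3G46050 or AT2G44030, read 0.315 ± 0.00959 at 4 °C and 1.36 ± 0.140 at 20 °C. Its gene AT2G44030 is also a name of probe 3950, at 3.22 ± 0.511 and 2.59 ± 0.217, and AT5G03000 of probe 3670, at 0.486 ± 0.0225 and 0.920 ± 0.0830.

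The limit of 0.35 cuts through a continuous range. Just inside it lay probes 795 (AT1G16630 or AT2G16270, ratio 0.342), 3643 (AT5G05360 or AT2G38450, 0.343), 4180 (AT1G78150 or AT1G35780, 0.344) and 2397 (AT1G07280 or AT2G29670, 0.349). Just outside lay 4311 (AT1G55800 or AT1G55790), 1541 (FATB, AT4G13050 or FaTA, thioesterases that end fatty acid synthesis) and 1737 (AT3G21300 or AT2G28450), each at 0.351, and 2602 (GrxC5 or AT2G20270, glutaredoxins) at 0.352. Probe 2397 read 0.439 ± 0.174 at 4 °C and 1.26 ± 0.0845 at 20 °C, and probe 1541 read 0.385 ± 0.0178 and 1.10 ± 0.115.

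How arrays are scaled to each other decides how many probes meet the rule. The median log2 change of the members was -2.02 as deposited, where all probes above 0 on an array had -0.74, a difference of -1.28. After median centring, quantile normalization and cyclic loess the members had -1.12, -1.06 and -1.06, with medians over all probes of 0.16, 0.05 and -0.0011. All 159 members stayed below 0 under these 3 scalings, a direction that their choice favours. The rule itself then picked 35, 34 and 29 probes, of which 35, 32 and 27 were members as deposited.

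A set of 22 members met the rule under the deposited values and all 3 other scalings, and 108 were lower without overlap under all 4. The share of all probes that does so was not counted. As the members were chosen on this contrast, both counts are descriptions. The 22 include the 12 with the lowest ratios, among them the ATG4, sterol glucosyltransferase, ESCRT-I, peroxidase, endoglucanase and bZIP probes, and also PME61 or ATPMEPCRD, the PP2A subunits, OPCL1 or 4CL8, and GR or GR1. Probe 1552, the brightest, had ratios of 0.30, 0.186 and 0.178 under median centring, quantile normalization and cyclic loess, beside 0.159 as deposited. GR or GR1 on probe 3511 came near the limit, with 0.329, 0.314 and 0.338. The other 6 of the 22 were probes 3930 (AT1G69090 or AT5G66830), 1024 (AT3G21295 or AT3G21290), 478 (AT1G31090, AT1G31080 or AT5G38810), 1552, 4537 (AT1G49000 or AT3G18560) and 2176 (AT1G49990, AT4G22430 or AT3G26010).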

How the data were processed

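Deposited intensity values, 1 per probe and array, were used as the authors gave them. They are linear, never below 0 and at most 100. Neither scanner, background correction, scaling nor array build is given in the sources used here. Probes were named from the platform annotation, with symbols and gene order from TAIR10.1. No sequence was used. Pairs of arrays (1-2, 3-4, 5-6) were averaged, because variance between pairs over variance inside them peaked there (median ratios 5.08 at 4 °C and 11.8 at 20 °C, next pairings 1.49 and 1.88). Means and SDs are over 3 linear pair means. Ratios use the 6-array means. Log2 values (any 0 replaced by that array's lowest positive value) entered limma 3.58.1 (lmFit, eBayes; R 4.3.3), two-sided, with Benjamini-Hochberg adjustment over 3379 probes, 4 °C minus 20 °C. Array number limits the precision.

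Members and lists were chosen with earlier results of these data known. Named probes are the 12 lowest ratios, the 8 brightest, 4 on each side of the limit, up to 3 per list, 12 that share a gene with another probe, and 4 with adjacent genes. The other role examples, the same-name pairs beyond these and the comparison over 4 scalings were chosen after their values were seen. The 18 lists were meant for product descriptions and were matched to symbols and synonyms, as the reference used here holds no descriptions. Same-numbered pairs of the 2 groups did not deviate together, so numbers were not taken as pairing. Alternatives covered scaling, offset, single arrays, block, dim probes, variance and left-out pairs.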

Additional observations from a re-analysis of the deposited data

Results flagged for a closer look

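In 192 groups of 6 arrays, for the probes named here and the single-name probes, the highest or lowest array lay apart from the rest by more than Dixon's limit in 7 groups. For independent arrays chance gives about 1 in 20 groups. The arrays of a pair were not independent here, so that rate need not hold. At 4 °C, GR or GR1 on probe 3511 read 0.213 on array 4, with the next array at 0.161, and PME61 or ATPMEPCRD on probe 2650 read 0.178 on array 6, with the next at 0.131. AT3G60490 or AT2G44940 on probe 3682 read 0.121 on cold array 3, next to 0.0624, and AT3G50880 on probe 1252 read 0.302 on cold array 6, next to 0.372. At 20 °C the other 3 were on array 4, with 0.314 for FAAH on probe 736, next to 0.369, 0.428 for LPA66 on probe 738, next to 0.354, and 0.254 for AT5G10160 or AT2G22230 on probe 981, next to 0.224.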

How the results depend on the processing

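Scaling moved most counts. After median centring, quantile normalization and cyclic loess, 650, 673 and 697 probes were called lower (1674 as deposited) and 1014, 651 and 639 higher (233). Single arrays gave 421 higher, and 424 with the replicate number as a block. The block on pair means, added after seeing the data, gave 1592 lower and 199 higher, and 8 of 13 single-name probes lower. The members' median was -1.12, -1.06 and -1.06 under the 3 scalings and -1.58 with an offset of 0.068 before log2. Single-name probes called lower numbered 4, 5 and 5 (9 as deposited). The rule picked 35, 34 and 29 probes (159), 163 on pair means, 117 and 214 at limits of 0.30 and 0.40, and 184 with zeros kept. Leaving out 1 pair gave 1402 to 1632 lower, 150 to 212 higher, 7 to 9 single-name probes lower, a members' median of -2.11 to -2.0 and 152 to 179 probes by the rule. Signs turned for AT1G03810 on probe 651 at 0.60 after median centring, for AT1G32160 on probe 820 at 0.74, 0.60 and 0.56, and for AT1G76240 on probe 4178 at 0.19, 0.37 and 0.38. The cause was not tested. PRA1.B3 on probe 3982 lost its call under each scaling, with the block on pair means and without 4 of the 6 pairs. With the replicate number as a block on single arrays, probe 651 was called lower and probes 800 and 1087 higher (limma adjusted p = 0.013, 0.016 and 0.0043). Values near 0 limit the ratios of the dimmest cold probes.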
